A study of Saccharomyces cerevisiae with 16 samples.

Results

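The comparison described here set wild-type budding yeast after 30 min of alkaline stress against the same strain after 10 min, to separate genes that responded briefly from those that stayed changed and those that changed late. It rests on 8 of the 16 arrays of the series, 4 at each time, and on every feature with a value on at least 3 arrays of each time, which were 2607 of 6174. The wild type was the laboratory strain W303-1A, grown in the rich glucose medium YPD at 28 °C. Cultures received 20 mM KOH, which raised the pH to 8, or 20 mM KCl as the non-inducing control. Each array carried KOH RNA and KCl RNA of the same strain and time. The other 8 arrays hold the same treatments and times of MCY5278, a strain with disruptions of both MSN2 and MSN4 (msn2::kanMX4 msn4::hphMX4), and serve as a comparison below. W303 strains carry auxotrophic mutations in amino acid and nucleotide pathways, and the rich medium supplies those nutrients to both treatments.

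Alkaline medium weakens the proton gradient across the yeast plasma membrane, which drives nutrient uptake, and makes phosphate, iron and copper harder to acquire. Calcium that enters the cell activates the phosphatase calcineurin, which sends the transcription factor Crz1 into the nucleus. The paired transcription factors Msn2 and Msn4 act through the stress response element (STRE). Protein kinase A (PKA), which is switched on by cAMP when glucose is plentiful, keeps them out of the nucleus and favours ribosome production.

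Values are log2 of KOH over KCl RNA after each array was centred on its median, called levels here, so a level of 1 is a 2-fold excess of RNA in KOH. Base and direction of the deposited log ratios are likely rather than stated. The difference of a gene is its level at 30 min minus its level at 10 min. A difference therefore compares responses to KOH, and a gene whose RNA changed alike in KOH and KCl shows none. The 4 wild-type arrays at 10 min held values for 2358 to 5025 features and those at 30 min for 3965 to 5012. Over the genes that 2 arrays shared, pairs of arrays of the same time correlated at r = 0.626 to 0.866 (12 pairs, median 0.727) and pairs of different times at 0.345 to 0.653 (16 pairs, median 0.516). The number of arrays limits the precision, and the median standard error of a difference was 0.22. The labels state 2 biological replicates with a dye swap, but not which arrays share an extract. The 4 arrays of a time were therefore the units, and all p-values below are too small where arrays share an extract.

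Ratios within a strain cannot show the absolute level of a cell type marker. Of the mating-type and sporulation markers, 1 MATa gene, 3 MATalpha genes and 1 sporulation gene were measured often enough, and none passed in limma, nor at an unadjusted p below 0.05 (0 of 5). MSN2 had values on all 4 mutant arrays at both times, and a ratio of KOH over KCl within the mutant does not check the disruption. In wild type MSN2 had a difference of -0.09 ± 0.20 and MSN4 of -0.27 ± 0.17 (3 arrays at 30 min), and neither passed (adjusted p = 0.782 and 0.294 by limma).

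Between 10 and 30 min more genes of wild type dropped than climbed in their level of KOH over KCl. Of the 2607 genes, 519 (19.9%) differed at an adjusted p below 0.05 in limma with Benjamini-Hochberg adjustment. The level was higher at 30 min for 178 genes (6.83%) and lower for 341 (13.1%). The median difference was 0.88 among the former and -0.91 among the latter, beside -0.01 over all genes tested. Differences of at least 2-fold were found for 51 of the higher and 143 of the lower genes, and differences of at least 4-fold for 1 and 31. The 4 arrays at 30 min lay wholly above those at 10 min for 238 genes (9.13%) and wholly below for 349 (13.4%), of which 148 and 279 were also called. All 178 higher and all 341 lower genes had the same sign with KOH in Cy3 and with KOH in Cy5. They also kept it in the larger of 2 sets of arrays, called slide series here, with 3 arrays per group. In the smaller series, with 1 array per group, 177 of 177 higher and 330 of 336 lower genes kept the sign. These subsets are parts of the arrays that gave the calls. Agreement in sign was therefore largely built in and is no independent support. With each of the 8 wild-type arrays left out in turn, 103 of the 178 higher and 229 of the 341 lower genes kept the call in every fit that tested them. When arrays of opposite dye were averaged into 1 replicate, the count of 519 became 131 to 816 over the 16 ways of pairing them.

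The levels at each time place these genes in the course of the response. At 10 min 582 of 2670 genes (21.8%) had more RNA in KOH than in KCl and 558 (20.9%) less, and at 30 min 824 (19.2%) and 806 (18.8%) of 4288. Raised and lowered below mean that the level passed this test, and rose and fell that the difference passed. The tests of levels share arrays with the difference and only place a gene. Counts of rises and falls in the lists below are to be read beside 6.83% and 13.1% of all genes tested. A rise is called transient where the gene was raised at 10 min, had dropped by 30 min and no longer passed there, and declining where it dropped but was still raised. By this rule 130 genes rose transiently, with a median level of 0.99 at 10 min and 0.00 at 30 min, and 57 had a declining rise, from 2.28 to 0.92. Another 203 genes were raised at both times with no passing difference, at medians of 0.80 and 0.78, and in 172 of them the 95% interval of the difference lay within 1 log2 unit of 0. Rises that grew were 22, from 0.81 to 1.92, and rises that passed first at 30 min were 79, from -0.08 to 0.84. Among falls, 57 were transient (-0.84 to 0.05), 6 declining, 281 sustained (-0.79 to -0.91, 244 of them within 1 log2 unit), 59 growing (-0.84 to -1.57) and 68 late (0.09 to -0.70). In 24 genes a rise turned into a fall, and in 7 genes a fall turned into a rise. Single arrays moved several of these counts. Transient rises were 85 without array 1 and 79 without array 3 of 10 min, sustained rises 135 and sustained falls 167 without array 4 of 10 min, and transient falls 31 and 26 without arrays 3 and 4 of 10 min. Growing falls were 33 and 36 without arrays 1 and 2 of 10 min and 32 and 38 without arrays 1 and 2 of 30 min, and late falls were 45 without array 2 of 30 min.

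**Figure D1:**
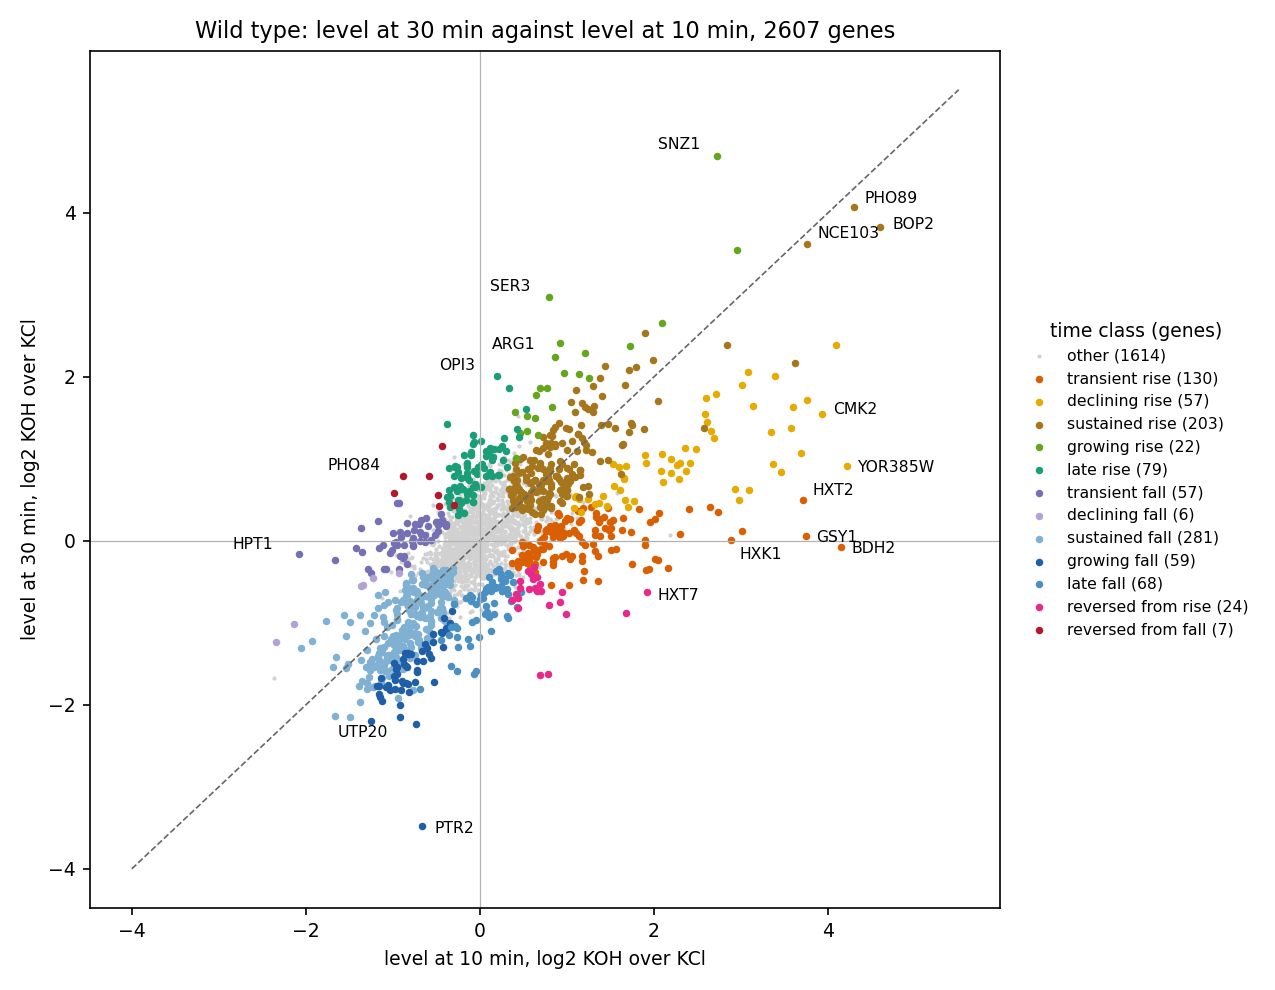
Level at 10 min (horizontal) and at 30 min (vertical) of 2607 genes in wild type, each as the log2 ratio of KOH over KCl, coloured by time class. Genes on the dashed line have equal levels, transient rises lie to the right near a 30-min level of 0, and the 281 sustained falls and 203 sustained rises lie along the line.

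Genes of carbohydrate storage were strongly raised at 10 min and had mostly returned towards their KCl control by 30 min. Of 25 genes of trehalose and glycogen metabolism 11 were tested. Of these, 9 fell from 10 to 30 min and none rose, with a median difference of -1.84 and median levels of 2.30 and 0.45. At 10 min 10 of the 11 were raised and at 30 min 6 were. Transient rises made up 5 and declining rises 4. GSY1, a glycogen synthase, stood at 3.87, 3.24, 4.00 and 3.86 on the 4 arrays at 10 min and 0.60, 0.50 and -0.88 on 3 arrays at 30 min. Every array at 10 min lay far above every array at 30 min, and the difference was -3.68 ± 0.36, or 12.8-fold (adjusted p = 7.17e-06, limma). PGM2, the major phosphoglucomutase, stood at 3.85, 2.85, 4.04 and 3.12 on the 4 arrays at 10 min and 1.05, 1.25, 1.06 and 0.01 on the 4 arrays at 30 min. The low array at 30 min was array 4, the groups did not overlap, and the level dropped 6.16-fold (-2.62 ± 0.28, adjusted p = 6.38e-06). The glycogen branching enzyme GLC3 went from 3.68 to 1.07, a difference of -2.61 ± 0.32 with 3 arrays at 30 min. TPS2, the phosphatase that completes trehalose synthesis, went from 2.64 to 0.41, a difference of -2.23 ± 0.28. BDH2, a putative alcohol dehydrogenase outside these lists, had the biggest drop of all genes tested. It stood at 3.60, 4.54 and 4.21 on 3 arrays at 10 min and -0.09, 0.20 and -0.43 on 3 arrays at 30 min, a difference of -4.22 ± 0.34, or 18.7-fold (adjusted p = 2.39e-06, limma).

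Targets of Msn2 and Msn4, which overlap the previous list, followed the same course. Of 39 listed genes 23 were tested. At 10 min 22 were raised, with a median level of 2.28, and at 30 min 11 were, with a median of 0.41. From 10 to 30 min 20 of 23 fell and none rose, with a median difference of -1.36. Transient rises made up 10 and declining rises 9 of the 23. HXK1, a hexokinase that is repressed by glucose, stood at 3.29, 2.82, 2.97 and 2.45 on the 4 arrays at 10 min and 0.03, 0.03, -0.12 and 0.07 on the 4 arrays at 30 min. The arrays at 30 min lay close to 0 and none reached the lowest at 10 min. The difference was -2.88 ± 0.21, or 7.35-fold (adjusted p = 5.62e-08, limma). MSC1, a listed gene whose function is poorly known, went from 3.60 to 1.63 (difference -1.97 ± 0.20) and was still raised at 30 min. The catalase gene CTT1, a classical STRE target, did not pass, with 0.23, 0.39, 1.17 and 0.24 on the 4 arrays at 10 min and -0.34, 0.32, 0.94 and -0.14 on the 4 arrays at 30 min (adjusted p = 0.284). The small membrane-associated heat shock gene HSP12 could not be tested, because it had values of 4.00 and 3.27 on arrays 3 and 4 at 10 min and none at 30 min.

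Part of the genes of glucose uptake and phosphorylation were raised early and fell. In hexose transport and glucose sensing 7 of 18 genes were tested. At 10 min 4 of 7 were raised, and by 30 min 4 fell while none rose (median difference -1.54). Of these, 1 was a transient rise, 2 reversed from a rise to a fall and 1 was a late fall. HXT2, a high-affinity hexose transporter, stood at 3.58, 3.55, 4.01 and 3.68 on the 4 arrays at 10 min and 0.86, 1.11, -0.15 and 0.20 on the 4 arrays at 30 min. Its groups were separated by more than 2 log2 units, and the difference was -3.20 ± 0.33, or 9.21-fold (adjusted p = 3.86e-06, limma). HXT7, a high-affinity transporter whose probe may also read its near-identical neighbour HXT6, reversed from 1.92 to -0.62 (difference -2.53 ± 0.25). The entry for HXT6 itself had a difference of 0.16 and did not pass. HXT3, a low-affinity transporter, reversed from 0.69 to -1.64 (difference -2.33 ± 0.27). In hexose phosphorylation 3 of 4 genes fell, with HXK1 followed by EMI2, a gene related to hexokinases (-1.20 ± 0.24), and the glucokinase GLK1 (-0.91 ± 0.22). GLK1 and EMI2 were still raised at 30 min, at levels of 1.79 and 0.99. Under quantile normalization GLK1 had a difference of 0.034 and over the other normalizations 1 to 4 of the 4 genes fell. Glycolysis and fermentation had 2 higher and 1 lower gene among 19, with a median difference of 0.14. That median was -0.09 in the larger slide series and 0.64 in the smaller, beside -0.06 and 0.16 over all genes tested.

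Some of the genes that cells switch on to use other carbon sources fell from 10 to 30 min. In the list for gluconeogenesis, the glyoxylate cycle and acetate use, 4 of 11 tested genes fell and 1 rose, and without array 2 or array 4 of 30 min 2 fell. The other normalizations gave 2 to 5 falls. The lactate permease JEN1 went from 2.06 to 0.33 (difference -1.73 ± 0.39, 3 arrays at 30 min). The acetaldehyde dehydrogenase ALD6 went from 1.38 to 0.05 (-1.33 ± 0.21). In the respiratory chain 5 of 14 genes fell and none rose, although the list median was -0.10. They include CYT1, cytochrome c1, from 0.44 to -0.82, the complex III subunit COR1 from 0.69 to -0.52, the mitochondrial NADH dehydrogenase NDI1 from 1.18 to -0.02 and the ATP synthase subunit ATP1 from 0.28 to -0.46. ATP1 was -0.94 in the larger slide series and -0.16 in the smaller. In the TCA cycle 3 of 18 genes fell and 1 rose (1 to 3 over the other normalizations), shares near the 13.1% and 6.83% of all genes tested. SDH1, a succinate dehydrogenase subunit, dropped from 0.33 to -0.94 and the mitochondrial malate dehydrogenase MDH1 from 0.62 to -0.32, while the isocitrate dehydrogenase subunit IDH2 rose from -0.15 to 0.95 (1.10 ± 0.29, adjusted p = 0.0121, limma). CCP1, the mitochondrial cytochrome c peroxidase, stood at 0.88, 0.88, 0.90 and 0.51 on the 4 arrays at 10 min and -0.75, -0.83, -0.98 and -0.57 on the 4 arrays at 30 min. All its arrays at 10 min were above 0 and all at 30 min below, a difference of -1.58 ± 0.16 (adjusted p = 2.81e-06).

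Targets of calcineurin and Crz1 were raised strongly at 10 min, and most were still raised, less strongly, at 30 min. Of 19 genes 15 were tested, of which 14 were raised at 10 min and 13 at 30 min, with median levels of 3.01 and 1.38. From 10 to 30 min 11 fell and none rose (median difference -1.33), and declining rises made up 9. Over the other normalizations 7 to 11 fell. YOR385W, an uncharacterized target, stood at 4.38, 4.75, 3.68 and 4.06 on the 4 arrays at 10 min and 1.00, 1.11, 0.67 and 0.90 on the 4 arrays at 30 min. Its lowest array at 10 min exceeded its highest at 30 min by more than 2 units, and the difference was -3.30 ± 0.25, or 9.84-fold (adjusted p = 1.12e-07, limma). MEP1, an ammonium permease, stood at 3.12, 2.93, 3.13 and 2.75 on the 4 arrays at 10 min and 0.55, 0.44, 0.57 and 0.41 on the 4 arrays at 30 min. Its groups were as clearly apart, with a difference of -2.49 ± 0.16, or 5.62-fold (adjusted p = 2.14e-08). CMK2, a calmodulin-dependent kinase, went from 3.93 to 1.55 (-2.38 ± 0.28) and GYP7, a GTPase-activating protein of vesicle traffic, from 3.58 to 1.38 (-2.20 ± 0.15). Calcium handling overlaps this list. There, 5 of 12 tested genes fell, led by CMK2 and the vacuolar calcium pump PMC1 (from 2.26 to 0.93), and without array 3 of 10 min 3 fell.

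Sodium and potassium handling had 4 lower genes among 10 tested, and 2 of 6 without array 1 of 10 min. The median difference was -0.47, at -0.68 in the larger slide series and -0.09 in the smaller, beside -0.06 and 0.16 over all genes tested. Over the other normalizations 1 to 5 fell, with medians of -0.51 to -0.20. HAL5, a protein kinase that acts on the potassium transporters Trk1 and Trk2, stood at 2.64, 4.14, 2.78 and 2.46 on the 4 arrays at 10 min and -0.34, -0.14, 0.63 and 0.30 on the 4 arrays at 30 min. The early arrays were all above the late ones, with a difference of -2.89 ± 0.31, or 7.41-fold (adjusted p = 4.11e-06, limma). ENA2, a sodium pump of a tandem gene cluster, went from 3.39 to 2.01 (-1.38 ± 0.21), the potassium-proton antiporter gene KHA1 from 2.29 to 0.95 (-1.35 ± 0.36, 3 arrays a side), and the protein phosphatase PPZ2 from 1.45 to 0.42 (-1.03 ± 0.24). ENA1, the main sodium pump of that cluster and a common reporter of alkaline stress, had 1 value in wild type, 3.25 on an array at 10 min, and was not tested. Probes for ENA1 and ENA2 may not be separable. PTK2, a kinase that activates the plasma membrane proton pump, went from 1.53 to 0.26 (-1.27 ± 0.22), while the pump itself, PMA1, did not pass (-0.82, -0.80, -0.51 and -0.84 on the 4 arrays at 10 min and -2.23, -1.94, -0.72 and -0.68 on the 4 arrays at 30 min, adjusted p = 0.11). In the list of proton ATPases and their regulators 3 of 15 fell and none rose, with a median of 0.07. Over all genes tested 13.1% fell and 6.83% rose.

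Components of the cAMP/PKA pathway were mostly raised at 10 min, and about as many fell as did not. At 10 min 12 of 17 tested genes were raised (median level 0.56), and 8 fell by 30 min while none rose (median difference -0.52). GPA2, the G protein subunit that couples a glucose receptor to cAMP synthesis, stood at 2.67, 3.88, 2.98 and 2.82 on the 4 arrays at 10 min and 0.70, 0.45, 0.90 and 0.42 on the 4 arrays at 30 min. The groups did not overlap and differed by -2.47 ± 0.21, or 5.53-fold (adjusted p = 4.26e-07, limma). YAK1, a kinase that opposes growth when PKA is low, stood at 2.80, 2.98, 3.14 and 2.81 on the 4 arrays at 10 min and 0.34, 0.43, 0.94 and 0.84 on the 4 arrays at 30 min. It differed by -2.30 ± 0.18, or 4.91-fold (adjusted p = 1.40e-07), again without overlap. The adenylate cyclase gene CYR1 went from 1.17 to -0.25 (-1.43 ± 0.20, 3 arrays at 10 min) and CDC25, which activates Ras, reversed from 0.61 to -0.47 (-1.08 ± 0.24, 3 arrays at 10 min). For CDC25 the value was -1.45 in the larger slide series and -0.26 in the smaller. The count of 8 depended on single arrays, at 3 of 12 without array 1 or array 4 of 10 min, 2 of 12 without array 3 of 10 min, and 5, 4 and 5 without arrays 1, 2 and 4 of 30 min. The range over the other normalizations was 5 to 9. In the Snf1 kinase and glucose repression list 1 of 9 fell and none rose. GIS1, a transcription factor of the late growth phase outside both lists, reversed from 1.68 to -0.89. It stood at 1.77, 1.24, 2.14 and 1.56 on the 4 arrays at 10 min and -0.97, -1.23 and -0.42 on 3 arrays at 30 min. Its difference was -2.56 ± 0.31 (adjusted p = 2.00e-05, limma).

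Many but not all heat shock chaperones fell by 30 min, and many were then below their KCl control. Of 24 tested genes 8 were raised and 2 lowered at 10 min, and 3 raised and 13 lowered at 30 min. From 10 to 30 min 13 fell and none rose (median difference -0.66). Late falls made up 6 of the 24 and transient rises 4. The list overlaps that of Msn2 and Msn4 targets, which also holds HSP104, HSP26 and HSP42. HSP104, which pulls aggregated proteins apart, stood at 2.07, 2.21, 2.59 and 1.78 on the 4 arrays at 10 min and -0.92, -0.91, 0.38 and 0.14 on the 4 arrays at 30 min. No array at 30 min reached those at 10 min, and the level dropped 5.62-fold (-2.49 ± 0.26, adjusted p = 3.86e-06, limma). The small heat shock protein HSP26 went from 3.37 to 0.94 (-2.43 ± 0.38, 3 arrays at 10 min), the mitochondrial disaggregase HSP78 from 1.74 to -0.28 (-2.03 ± 0.24) and the small heat shock protein HSP42 from 1.21 to -0.05 (-1.26 ± 0.22).

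**Figure D2:**
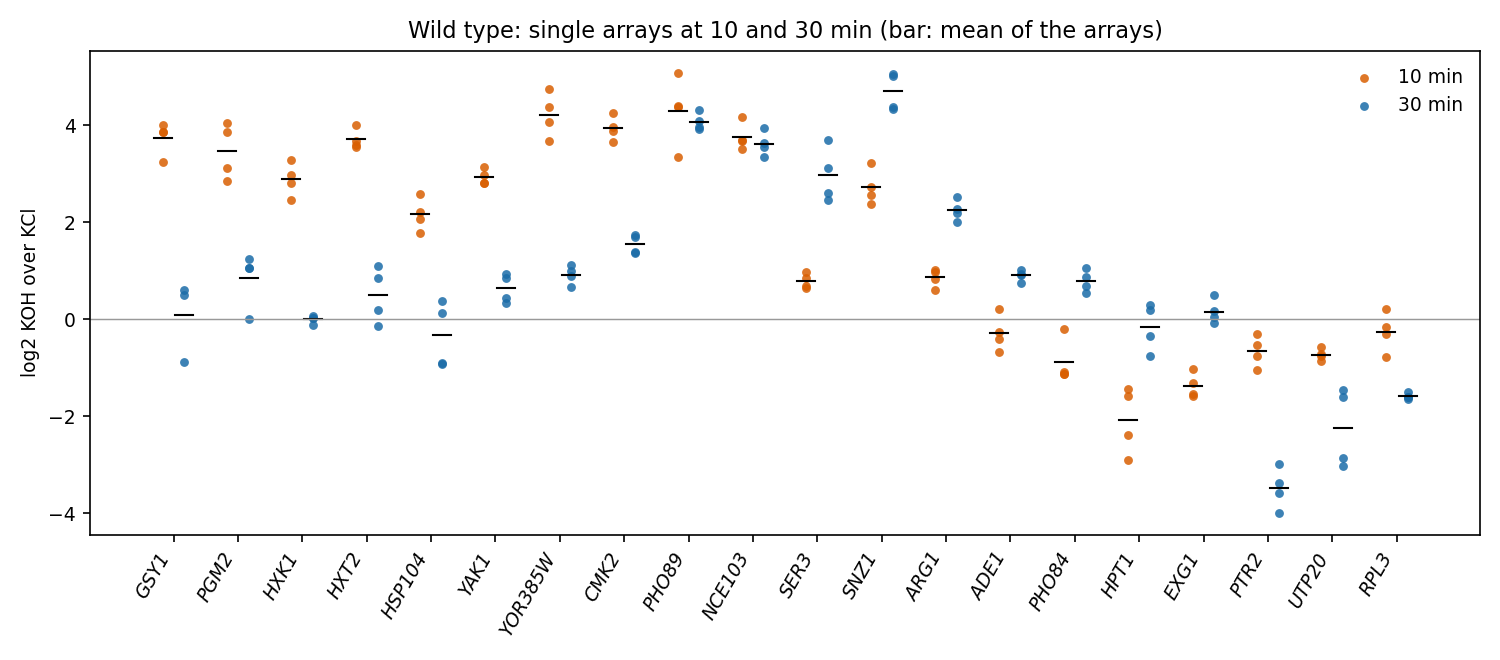
Single wild-type arrays of 20 genes described in the text, as log2 KOH over KCl at 10 min (orange) and 30 min (blue), with a bar at the mean of the arrays. GSY1, HXK1 and HXT2 drop to near 0, PHO89 and NCE103 overlap between the times, SER3, SNZ1 and ARG1 climb, and PTR2 falls to a 30-min mean of -3.48.

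Some of the strongest rises did not pass as different between the times. PHO89, the sodium-phosphate cotransporter that works at alkaline pH, stood at 4.37, 3.34, 5.08 and 4.39 on the 4 arrays at 10 min and 4.32, 3.92, 3.97 and 4.08 on the 4 arrays at 30 min. The groups overlapped, with a difference of -0.22 ± 0.27 (95% interval -0.80 to 0.35, adjusted p = 0.593, limma). BOP2, whose function is poorly known, had levels of 4.59 and 3.83 (adjusted p = 0.0782 for the difference). NCE103, carbonic anhydrase, stood at 3.70, 3.67, 4.16 and 3.50 on the 4 arrays at 10 min and 3.34, 3.63, 3.94 and 3.55 on the 4 arrays at 30 min. Its groups overlapped as well (difference -0.14 ± 0.31, adjusted p = 0.781). The vacuolar protease PRB1 had levels of 2.84 and 2.38, and GSC2, a stress-induced subunit of cell wall glucan synthase, of 1.90 and 2.53. PYC1, pyruvate carboxylase, had 1.99 and 2.20. Quantile normalization turned the sign of 3 of these differences, to values for PHO89 of 1.09, NCE103 of 1.16 and PRB1 of 0.70. Vacuolar proteases and autophagy genes were raised in 8 of 8 tested at 10 min and 7 of 8 at 30 min, at median levels of 1.00 and 1.20, and none passed in limma between the times (1 at an unadjusted p below 0.05). With the other normalizations 0 to 3 of them rose, with medians of 0.15 to 0.47 beside 0.19 here.

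Rises that grew or appeared late included many biosynthetic genes. Of 41 genes of amino acid biosynthesis other than arginine, 11 rose from 10 to 30 min and 1 fell (median difference 0.46). The counts over the other normalizations were 11 to 18 rises and 1 to 2 falls. At 10 min 5 were raised and 8 lowered, and at 30 min 17 and 3. SER3, a phosphoglycerate dehydrogenase that starts serine synthesis, stood at 0.85, 0.69, 0.64 and 0.97 on the 4 arrays at 10 min and 2.59, 2.46, 3.12 and 3.70 on the 4 arrays at 30 min. Every late array exceeded every early one, and the level rose 4.53-fold (2.18 ± 0.25, adjusted p = 7.35e-06, limma), the only rise past 4-fold. HIS5, of histidine synthesis, rose from 0.33 to 1.86 (1.52 ± 0.26), HIS7 of the same pathway from -0.58 to 0.79 (1.37 ± 0.20) and LYS20, homocitrate synthase of lysine synthesis, from -0.10 to 1.08 (1.19 ± 0.22). ARO5 rose from 0.92 to 2.41 (1.49 ± 0.25). In arginine biosynthesis 5 of 8 tested genes rose and none fell (median difference 0.88), and all 8 were raised at both times. ARG1, argininosuccinate synthetase, stood at 1.02, 0.84, 0.98 and 0.60 on the 4 arrays at 10 min and 2.00, 2.27, 2.52 and 2.18 on the 4 arrays at 30 min. Its groups were fully apart, with a 2.61-fold rise (1.38 ± 0.20, adjusted p = 1.22e-04). ARG4, argininosuccinate lyase, rose from 0.77 to 1.86, CPA1, of carbamoyl phosphate synthetase, from 0.54 to 1.53 and ARG3, ornithine carbamoyltransferase, from 1.14 to 2.03.

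Purine and pyrimidine synthesis had 13 rises and 1 fall (1 to 2 over the other normalizations) among 30 tested genes, with a median difference of 0.48. At 10 min none was raised and 10 were lowered, and at 30 min 16 were raised and 9 lowered. Late rises made up 11 and sustained falls 7. HPT1, which salvages hypoxanthine and guanine, stood at -1.59, -1.44, -2.91 and -2.39 on the 4 arrays at 10 min and 0.29, 0.20, -0.77 and -0.35 on the 4 arrays at 30 min. It was well below its KCl control at 10 min and near it at 30 min, a rise of 1.92 ± 0.39 or 3.80-fold (adjusted p = 0.00223, limma). URA1, dihydroorotate dehydrogenase, stood at -0.77, -0.47, -0.32 and -0.17 on the 4 arrays at 10 min and 1.37, 1.37, 0.74 and 1.14 on the 4 arrays at 30 min. All early arrays were below 0 and all late arrays above it, a rise of 1.59 ± 0.19 or 3.00-fold (adjusted p = 1.48e-05). SHM2, a serine hydroxymethyltransferase that feeds one-carbon units to purines, rose from -0.19 to 1.05 and ADE1, of adenine synthesis, from -0.29 to 0.90. FCY2, the purine and cytosine permease, rose from -1.17 to 0.24 (1.41 ± 0.22). Retrograde signalling, which reports mitochondrial state to the nucleus, had 3 rises and no fall among 7, with IDH2 and the lactate dehydrogenase DLD3 (from 1.20 to 2.29). SNZ1, of vitamin B6 synthesis, stood at 3.21, 2.38, 2.56 and 2.73 on the 4 arrays at 10 min and 5.05, 5.01, 4.38 and 4.34 on the 4 arrays at 30 min. It was raised on every early array and higher still on every late one, a rise of 1.97 ± 0.28 or 3.93-fold (adjusted p = 9.87e-05). OPI3, a methyltransferase of phosphatidylcholine synthesis, rose from 0.20 to 2.01 (1.81 ± 0.31). PDH1, which resembles methylcitrate dehydratases, rose from -0.38 to 1.43 (1.80 ± 0.31, 3 arrays at 10 min).

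A further late rise was that of RTA1, a membrane protein that confers drug tolerance when overproduced, from -0.08 to 1.29. Growing rises also held ADH5, an alcohol dehydrogenase, from 0.97 to 2.05, VHT1, the biotin transporter, from 0.64 to 1.78, and SRY1, a dehydratase of modified amino acids, from 2.09 to 2.65. SRY1 (difference 0.56 ± 0.19, adjusted p = 0.048, limma) kept its call in 1 of the 8 fits that left out a wild-type array.

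PHO84 of phosphate uptake was below its KCl control at 10 min and above it at 30 min. In the phosphate (PHO) regulon 4 of 16 tested genes rose and none fell (median difference 0.49). PHO84, the high-affinity proton-phosphate symporter, stood at -1.08, -1.13, -0.20 and -1.14 on the 4 arrays at 10 min and 1.05, 0.87, 0.54 and 0.68 on the 4 arrays at 30 min. Array 3 at 10 min lay apart from the other early arrays, yet all were below 0 and all late arrays above, with a rise of 1.67 ± 0.24 or 3.19-fold (adjusted p = 1.22e-04, limma). The secreted acid phosphatases PHO12 and PHO11, which are near-identical and may share probe signal, rose from -0.95 to 0.46 and from -0.93 to 0.47, and their levels at 30 min did not pass. GPP1, a glycerol phosphatase that is very like GPP2, reversed from -0.99 to 0.58 (1.57 ± 0.30). Copper uptake and handling had 3 rises among 5 genes (median difference 0.66), in REE1, which affects the enolase gene (-0.07 to 1.20), in FRE1 and in the copper transporter CTR1 (-0.48 to 0.19). FRE1, a surface reductase for iron and copper, rose from -0.47 to 0.43 (0.90 ± 0.21) and was the 1 gene that changed of 8 in the iron uptake list.

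Ergosterol synthesis included genes lowered at 10 min that had risen by 30 min. At 10 min 8 of 21 tested genes were lowered and 1 raised, at 30 min 3 and 6, and from 10 to 30 min 8 rose and 2 fell (median difference 0.51). ERG5, a sterol desaturase, stood at -1.07, -1.55 and -1.34 on 3 arrays at 10 min and -0.07, -0.11, -0.42 and 0.07 on the 4 arrays at 30 min. Its groups did not overlap, with a rise of 1.23 ± 0.18 (adjusted p = 1.78e-04, limma). MVD1, which makes isopentenyl pyrophosphate from mevalonate, reversed from -0.48 to 0.56 (1.04 ± 0.21). The 8 rises became 5 without array 3 of 10 min or array 2 of 30 min, 2 without array 4 of 10 min and 3 without array 4 of 30 min. The falls were led by ECM22, a transcription factor of sterol genes, from 1.02 to -0.54 (-1.55 ± 0.39, 3 arrays a side). IRC7, a lyase of sulphur amino acids, rose from -1.42 to -0.08 (1.34 ± 0.19, 3 arrays at 10 min). EXG1, a cell wall glucanase, stood at -1.31, -1.59, -1.55 and -1.04 on the 4 arrays at 10 min and 0.16, -0.09, 0.04 and 0.50 on the 4 arrays at 30 min. The early arrays were all below -1 and the late arrays around 0, a rise of 1.52 ± 0.17 or 2.87-fold (adjusted p = 5.80e-06). The cell wall integrity list as a whole had 1 rise and 2 falls among 25, with a median of 0.03, and over the other normalizations 1 to 2 rises and 1 to 3 falls. The cell wall falls were of YPS1, a surface protease that is also a calcineurin target, from 3.34 to 1.33, and the chitin synthase CHS1, from 2.66 to 1.34.

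Ribosome assembly and ribosomal proteins followed different courses. Most assembly factors were lowered at 10 min, 14 of 19 in the small-subunit (SSU) processome list and 24 of 30 in the 60S list, and fewer at 30 min, 9 and 17. Differences passed in both directions, with 3 rises and 4 falls in the first and 4 and 3 in the second (medians 0.35 and 0.18). The 4 rises of the 60S list became 1 without array 1, 3 or 4 of 10 min or array 2, 3 or 4 of 30 min, and the 4 falls of the processome list became 2 without array 1 or 2 of either time. Over the other normalizations the 60S list had 2 to 7 rises and 3 to 5 falls. In the processome list ENP1 rose from -2.34 to -1.23 (1.11 ± 0.25, 3 arrays at 10 min) and NHP2, a snoRNP protein, from -2.14 to -1.02 (1.12 ± 0.27). BUD22, a processome gene outside both lists, rose from -1.67 to -0.23 (1.43 ± 0.34, 3 arrays a side). KRI1, also outside both lists, rose from -1.29 to -0.35. PUS1, a pseudouridine synthase of tRNA, rose from -1.36 to -0.56, and RRN11, a transcription factor of RNA polymerase I, from -0.84 to 0.10. The processome scaffold UTP20 went the other way, with -0.73, -0.86, -0.58 and -0.76 on the 4 arrays at 10 min and -3.02, -2.87, -1.46 and -1.60 on the 4 arrays at 30 min. Arrays 1 and 2 at 30 min lay below arrays 3 and 4, all lay below the early ones, and the difference was -1.51 ± 0.32 (adjusted p = 0.0039, limma). NSA1, a 60S assembly factor, reversed from 0.92 to -0.74 (-1.66 ± 0.27). NOP56, a snoRNP protein, fell from -0.92 to -2.14 and REA1, an ATPase that remodels the 60S precursor, from -0.25 to -1.30. NOP56 was -1.53 in the larger slide series and -0.30 in the smaller. MAK21, of 60S assembly, was low at both times, at -1.49 and -2.15, with no passing difference.

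Cytosolic ribosomal protein genes were nearly all lowered at 10 min, and some fell further by 30 min. Of 68 large-subunit genes 64 were lowered at 10 min and 68 at 30 min, at median levels of -0.98 and -1.47. From 10 to 30 min 24 fell while none rose (median difference -0.52), 21 as growing and 3 as late falls. Of 43 small-subunit genes 42 were lowered at 10 min and 43 at 30 min, at -0.97 and -1.43. Between the times 13 fell while none rose (median -0.41), 12 as growing falls and 1 as a late fall. RPL3 stood at -0.30, -0.16, 0.20 and -0.78 on the 4 arrays at 10 min and -1.64, -1.50, -1.61 and -1.60 on the 4 arrays at 30 min. Its late arrays lay close together and below every early array, a difference of -1.33 ± 0.18 or 2.51-fold (adjusted p = 5.23e-05, limma). RPL16A fell from -0.53 to -1.73 and RPL4A from -0.01 to -1.17, though the arrays of RPL4A overlapped between the times. The ribosomal stalk protein gene RPP0, counted with the large subunit, fell from -0.82 to -1.75. RPS2 fell from -0.85 to -1.73, RPS0B from -1.13 to -1.96 and RPS7B from -0.98 to -1.80. RPS9B and RPS22A were low at both times, at -1.67 and -2.14 and at -1.38 and -1.96, without a passing difference. The median difference of the large-subunit genes was -0.60 in the larger slide series and -0.22 in the smaller, and that of the small-subunit genes -0.56 and -0.16. Over all genes tested the medians were -0.06 and 0.16. Without array 1 of 10 min 14 of 67 large-subunit genes and 7 of 41 small-subunit genes fell, and without array 2 of 10 min 13 of 67 large-subunit genes. Over the other normalizations 15 to 33 large-subunit and 9 to 20 small-subunit genes fell. Paired ribosomal protein genes are near-identical, so their probes may read both copies. Mitochondrial ribosomal proteins had 0 of 30 genes called by limma in either direction, with a median difference of -0.06 and 3 at an unadjusted p below 0.05.

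Translation factors and tRNA synthetases had 8 falls and no rise among 50 genes, with a median difference of -0.21. This share of falls is near the 13.1% of all genes tested. TIF4631, the cap-complex scaffold eIF4G, fell from -0.33 to -1.53 (-1.20 ± 0.30), YEF3, the fungal elongation factor eEF3, from -0.92 to -2.00 (-1.08 ± 0.24) and the eIF2 subunit GCD11 from -0.29 to -1.04 (-0.75 ± 0.18). YEF3 was -1.41 in the larger slide series and -0.07 in the smaller. The list median was -0.37 and 0.17, beside -0.06 and 0.16 over all genes tested. The count of 8 was 4 without array 1 or array 2 of 30 min and 13 without array 3 of 30 min, and 7 to 14 over the other normalizations.

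Nutrient permeases and nitrogen genes held both early rises that ended and PTR2, the lowest level at 30 min of the 2607 genes. Among 15 amino acid and peptide permeases 7 fell and none rose (median difference -0.44). PTR2, the transporter of di- and tripeptides, stood at -0.52, -0.76, -0.31 and -1.06 on the 4 arrays at 10 min and -2.98, -3.38, -3.99 and -3.58 on the 4 arrays at 30 min. Every late array was far below every early one, a difference of -2.82 ± 0.28 or 7.05-fold (adjusted p = 2.48e-06, limma). MMP1, which takes up S-methylmethionine, went from 1.95 to -0.34, the carnitine and polyamine transporter AGP2 from 2.69 to 1.26 and the branched-chain amino acid permease BAP2 from 1.51 to 0.16. In nitrogen and glutamate metabolism 5 of 13 fell and 2 rose (1 to 3 over the other normalizations). The proline oxidase PUT1 went from 2.74 to 0.35 (-2.38 ± 0.42, 3 arrays at 10 min) and the glutamate synthase GLT1 from -0.07 to -1.62 (-1.55 ± 0.29), while the glutamine synthetase GLN1 rose from -0.35 to 0.89 (1.24 ± 0.20). GLT1 was -1.85 in the larger slide series and -0.68 in the smaller.

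**Figure D3:**
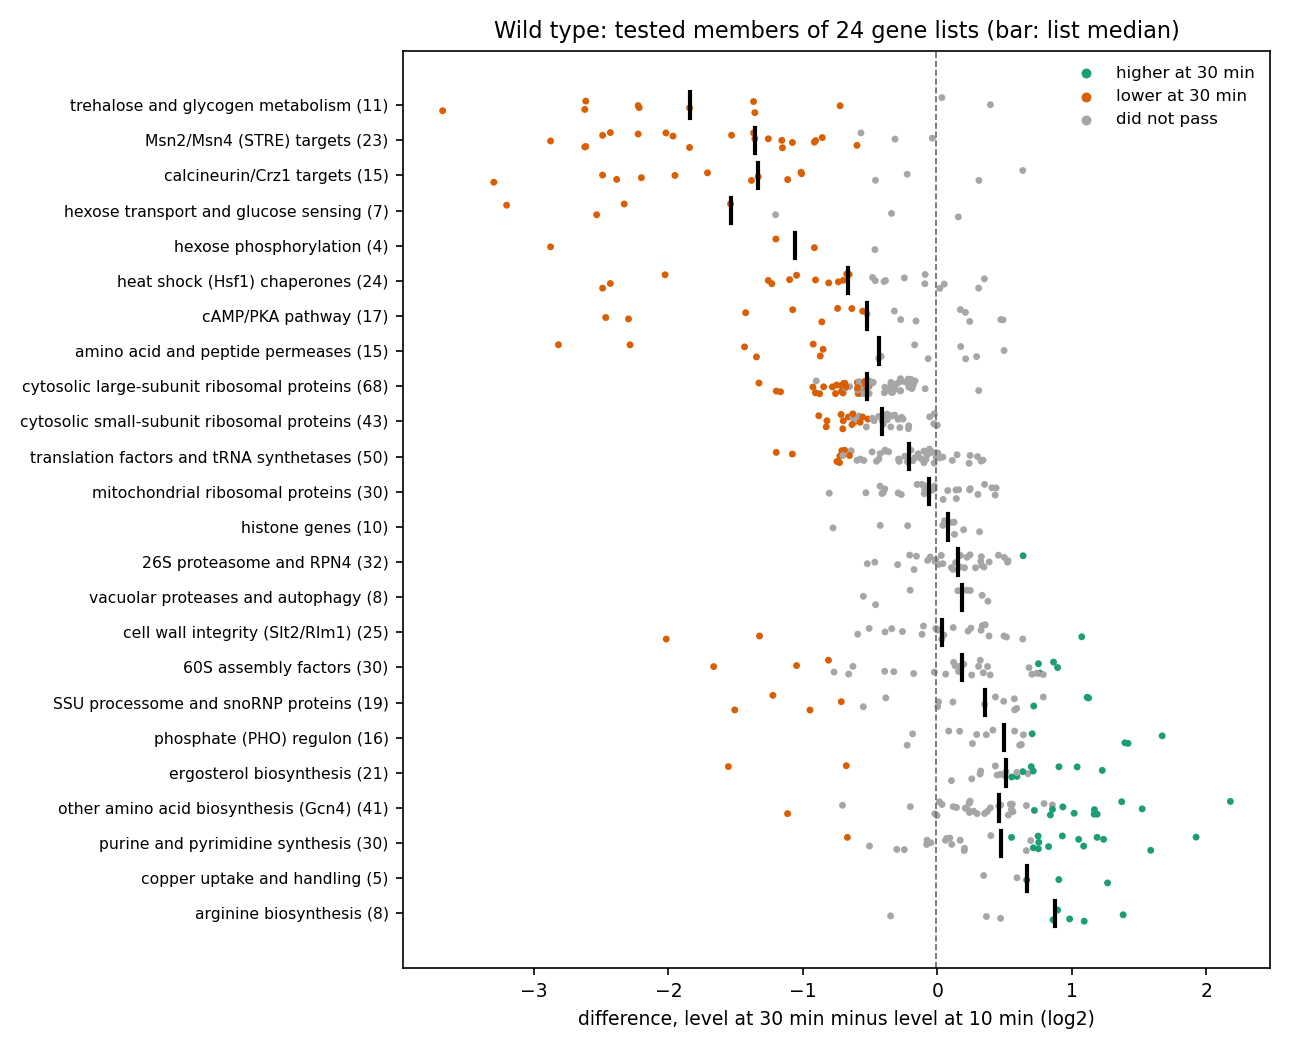
Difference of each tested member of 24 gene lists in wild type (level at 30 min minus level at 10 min, log2), with a black bar at the list median and the number tested in brackets. Orange members fell, green members rose, grey members did not pass, and the dashed line marks the median of all genes, -0.01.

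The mutant without Msn2 and Msn4 gives the same time comparison on other arrays. In the mutant 473 of 2934 genes (16.1%) differed between the times, 178 higher (6.07%) and 295 lower (10.1%) at 30 min. Of the 178 genes that rose in wild type, 160 were tested in the mutant, where 57 rose, 0 fell and 138 had the same sign. Of the 341 that fell, 283 were tested, of which 128 fell, 3 rose and 237 had the same sign. Across 2328 genes the differences in the strains correlated at r = 0.57 and rho = 0.45, as a description across genes, which are not independent. The test of whether the time change differs between the strains passed for 44 of 2328 genes (1.89%), 8 higher in wild type (0.344%) and 36 lower (1.55%). That count ran from 4, without array 2 of the mutant at 10 min, to 122, without array 3 of wild type at 30 min, and from 0 to 243 over the ways of pairing arrays.

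The drop from 10 to 30 min was smaller in the mutant for several STRE targets, among them genes of storage carbohydrates. Their levels at 10 min were lower there too, with a mean over arrays of 0.76 ± 0.30 (SD, n = 3) for PGM2 in the mutant against 3.46 ± 0.57 (n = 4) in wild type. TPS2 had 0.69 ± 0.24 against 2.64 ± 0.35, HSP104 0.70 ± 0.20 against 2.16 ± 0.34, and HXK1 0.97 ± 0.19 against 2.88 ± 0.35 (n = 4 each). MSC1 had 1.42 ± 0.33 (n = 3) against 3.60 ± 0.23. HSP78, which is not in the list of STRE targets, had 0.31 ± 0.27 (n = 3) against 1.74 ± 0.50. These 6 genes were chosen by a test that includes the 10 min arrays, so their lower levels there are no independent support. The part of this lower starting level in the smaller drop was not tested. Of 17 STRE targets tested in both strains, 4 fell in the mutant, with a median of -0.39 beside -1.36 for the same genes in wild type. The strain difference passed for 7 of 17, all lower in wild type. Without array 1 of the mutant at 10 min 1 of 18 fell in the mutant. For trehalose and glycogen genes the medians were -0.31 in the mutant and -1.79 in wild type over 8 genes, and the strain difference passed for 2. PGM2 differed between times by -0.47 ± 0.30 in the mutant, and the strain difference was -2.15 ± 0.41 (adjusted p = 0.0161, limma). TPS2 had -0.08 ± 0.28 in the mutant and a strain difference of -2.14 ± 0.39 (adjusted p = 0.0113). HSP104 had a strain difference of -1.89 ± 0.37, MSC1 of -1.78 ± 0.29, HSP78 of -1.74 ± 0.35 and HXK1 of -1.65 ± 0.29. PGM2 and MSC1 kept this call in 13 of 13 fits that left out 1 array and tested them, TPS2 and HXK1 in 16 of 16, HSP104 in 14 of 16 and HSP78 in 10 of 13. The opposite direction was led by URA1, which did not pass in the mutant (0.05 ± 0.19) and had a strain difference of 1.54 ± 0.27 (adjusted p = 0.0113), kept in 16 of 16 fits.

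Calcineurin targets and ribosomal proteins changed in the mutant as well. Of 15 calcineurin targets tested in both strains 11 fell and 1 rose in the mutant, with medians of -1.16 in the mutant and -1.33 in wild type, and the strain difference passed for 1. YOR385W had -2.89 ± 0.25 in the mutant, CMK2 -2.99 ± 0.28 and MEP1 -2.66 ± 0.16, and none of these strain differences passed. Of the ribosomal protein genes 61 of 68 of the large subunit and 38 of 41 of the small subunit fell in the mutant. Their medians there were -1.10 and -1.14, lower than the -0.52 and -0.44 of the same genes in wild type. The strain difference passed for 3 large-subunit genes, including RPL31A (1.11 ± 0.27, kept in 4 of 16 fits without 1 array). SER3, SNZ1 and PHO84 rose in the mutant by 2.01, 1.78 and 1.85. In purine and pyrimidine synthesis 7 of 28 rose there, with a median of 0.18 beside 0.61 for the same genes in wild type. Over the 34 of these genes tested in the mutant 9 rose, and 3 did without array 3 or array 4 of the mutant at 10 min. FRE1 rose by 2.41 in the mutant, more than in wild type (strain difference -1.50 ± 0.30, adjusted p = 0.0161, limma).

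**Figure D4:**
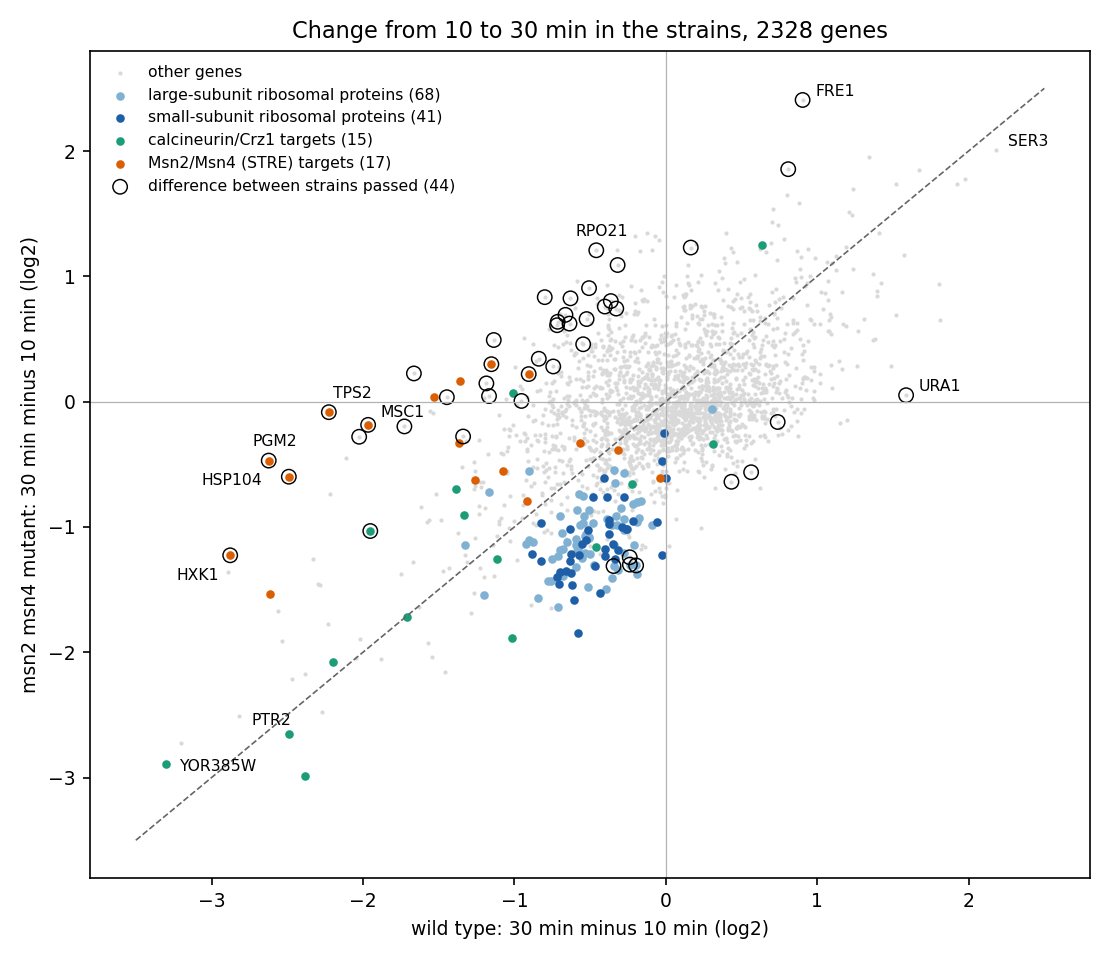
Change from 10 to 30 min (log2) in wild type (horizontal) and in the msn2 msn4 mutant (vertical) for 2328 genes, with 3 kinds of listed genes coloured and the 44 genes whose change differed between the strains ringed. STRE targets such as PGM2 and TPS2 lie left of the dashed line of equal change near a mutant change of 0, calcineurin targets lie along it, and ribosomal proteins lie below it.

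The comparison leaves out 1681 genes with enough values at 30 min only, of which 125 had no value, 790 had 1 and 766 had 2 at 10 min. At 30 min 289 of them were raised and 244 lowered. Another 63 genes had enough values at 10 min only, of which 27 were raised and 12 lowered. What decides whether a cell is empty is not given in the sources used here, and the counts above do not cover these genes.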

How the data were processed

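Total RNA of wild-type and msn2 msn4 cultures was labelled as oligo(dT)-primed cDNA and hybridised to 16 arrays with 2 dyes each, per the labels' protocols. The authors deposited 1 log ratio per feature and array, read here as log2 of KOH over KCl. Not given in the sources used here are the scanner, any background correction or normalization, and why cells are empty. Names came from the reference table through locus tags (5675 of 6174 features matched).

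The median of each array was set to 0. With limma 3.58.1 (R 4.3.3), the 16 arrays entered 1 linear model holding a coefficient for every group and a term for the dye of the KOH RNA. Tests were two-sided and moderated, with Benjamini-Hochberg adjustment over the genes with values on at least 3 arrays of each group compared, and the threshold was an adjusted p of 0.05. Each ± gives the model's standard error, with n = 4 arrays a side unless stated. The code was tested on simulated data. Arrays were split into 2 sets by the first digits of their titles, with arrays 1 to 3 of each group in the larger and array 4 in the smaller. The sets are called slide series here, but the titles are bare numbers. That these mark slides or batches is inferred.

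The comparison, the time classes and the 50 gene lists were chosen with earlier results of these data known, so no list was tested. Lists are described by counts and medians. Named genes are those with the largest differences with no overlap between arrays, the largest of each time class and list, those that differed most between the strains, and a few chosen by name, and fewer are printed in rank order. Near-identical genes may share probe signal. Alternatives changed the dye term, the arrays, the slide series, moderation, weights, normalization, the filter and the unit of replication.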

Additional observations from a re-analysis of the deposited data

Results flagged for a closer look

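In 238 groups of 4 arrays of named genes, 11 had 1 array far from the other 3, and chance gives about 1 in 20 such groups. They include PHO84 at 10 min (array 3 at -0.20, the others -1.14 to -1.08), PGM2 at 30 min (array 4 at 0.007, the others 1.05 to 1.25) and CYR1 at 30 min (array 2 at -0.55, the others -0.18 to -0.13). Others were YPS1 at 10 min (array 3 at 3.93, the others 3.12 to 3.17), CCP1 at 10 min (array 4 at 0.51, the others 0.88 to 0.90) and RTA1 at 30 min (array 3 at 1.81, the others 1.10 to 1.16). Further ones were CPA1 at 30 min (array 2 at 1.79, the others 1.42 to 1.46), RPL4A at 30 min (array 4 at -0.11, the others -1.56 to -1.49) and MSN2 at 30 min (array 2 at 0.21, the others -0.32 to -0.30). The last were PMA1 at 10 min (array 3 at -0.51, the others -0.84 to -0.80) and CTT1 at 10 min (array 3 at 1.17, the others 0.23 to 0.39). PGM2, PHO84, CYR1, YPS1, CCP1, RTA1 and CPA1 passed between the times with every array in place and without any 1 wild-type array that left them testable, as did RPL4A.

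The change from 10 to 30 min differed between wild type and the mutant, by limma's test of the difference itself, for 15 named genes. Values are wild-type change minus mutant change. Below 0 were the storage and stress genes PGM2 (-2.15 ± 0.41, mutant change -0.47, wild-type change -2.62), TPS2 (-2.14 ± 0.39, mutant change -0.08, wild-type change -2.23), HSP104 (-1.89 ± 0.37, mutant change -0.60, wild-type change -2.49) and MSC1 (-1.78 ± 0.29, mutant change -0.19, wild-type change -1.97). Others below 0 were HSP78 (-1.74 ± 0.35, mutant change -0.28, wild-type change -2.03), HXK1 (-1.65 ± 0.29, mutant change -1.23, wild-type change -2.88) and NSA1 (-1.89 ± 0.41, mutant change 0.22, wild-type change -1.66). The RNA polymerase II subunit RPO21 (-1.67 ± 0.40, mutant change 1.21, wild-type change -0.46), the reductase FRE1 (-1.50 ± 0.30, mutant change 2.41, wild-type change 0.90), PUS1 (-1.05 ± 0.26, mutant change 1.85, wild-type change 0.81) and ATP1 (-1.02 ± 0.26, mutant change 0.28, wild-type change -0.74) followed. Above 0 were URA1 (1.54 ± 0.27, mutant change 0.05, wild-type change 1.59) and SRY1 (1.13 ± 0.27, mutant change -0.56, wild-type change 0.56), RPL31A (1.11 ± 0.27, mutant change -1.31, wild-type change -0.20) and MET16, a reductase of sulphate assimilation (1.07 ± 0.25, mutant change -0.64, wild-type change 0.43). In fits without 1 array the call was kept in 15 of 16 for FRE1, 7 of 10 for NSA1, 4 of 16 for RPO21, 3 of 13 for PUS1, 3 of 16 for ATP1, 5 of 16 for SRY1 and 3 of 13 for MET16.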

How the results depend on the processing

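Of 131 named genes tested, 115 passed and 69 of these passed under every alternative that tested them. Of those that did not, 19 lost the call with a minimum change of 1 log2 unit, 10 under quantile normalization and 41 under at least 1 pairing of arrays. SRY1 was the only named gene that lost it without a single array. The 519 genes of wild type became 788 with array weights, 194 with the minimum change and 131 to 816 over the pairings, and 368 to 520 without 1 array. Under quantile normalization 237 were higher and 266 lower. With the slide series as a term 567 passed, and in the larger series 351.

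The 1140 genes called at 10 min became 682 in the larger series, 341 with the minimum change, 698 under the pairing with the fewest calls and 711 to 961 without 1 array. Centred on the genes of all 16 arrays, 711 were raised and 445 lowered. The 1630 called at 30 min became 481 with the minimum change, 797 under a pairing and 1225 to 1338 without 1 array. The 473 of the mutant became 305 in the larger series, 239 with the minimum change, 169 under a pairing and 318 to 420 without 1 array. Of them 229 were higher and 256 lower with values as deposited, and 201 and 170 under quantile normalization.

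The 44 strain differences became 22 without the dye term, 9 in the larger series, 404 with array weights, 26 under quantile normalization, 22 with genes on at least 2 arrays, 4 to 122 without 1 array and 0 to 243 over the pairings. The split was 3 higher and 50 lower with values as deposited, and 19 and 38 under scale normalization. Signs turned for GLK1 (0.034), PHO89 (1.09), NCE103 (1.16, adjusted p = 0.0177 in limma) and PRB1 (0.70, adjusted p = 0.0359 in limma) under quantile normalization. They also turned for PHO89 under scale normalization (0.027) and without array 3 of 10 min (0.076; range without 1 array -0.56 to 0.076), for RPL31A with array weights (0.0053), for MSN2 without array 3 of 30 min (range -0.27 to 0.0073) and for the glycerol list median without array 2 (-0.053) or 4 (-0.0055) of 10 min (range -0.053 to 0.18). The cause was not tested. No paired analysis was possible because the labels carry no replicate numbers. Promoter motifs were not analysed here.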

Other observations

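Further lists of genes had few or opposed changes between 10 and 30 min in wild type. In glycerol metabolism 2 of 7 genes rose and 2 fell (median difference 0.09). The glycerol phosphatase GPP1 rose, while the glycerol-phosphate dehydrogenases GUT2 (from 1.49 to 0.23) and GPD1 (from 1.37 to 0.27) fell. In redox and oxidative stress 5 of 25 rose and 3 fell, beside 6.83% and 13.1% of all genes tested. Without array 4 of 30 min 3 rose. In that list the cytochrome c peroxidase CCP1 fell and the glutaredoxin GRX3 rose from -0.29 to 0.66 (0.95 ± 0.19). Among G1/S and S phase genes 3 of 15 rose and 1 fell. The cyclin PCL1 rose from -0.06 to 0.85 (0.92 ± 0.23) and the G1 cyclin CLN3 fell from 0.54 to -0.27 (-0.82 ± 0.19). In methionine and sulphur assimilation 3 of 25 rose and 3 fell, with falls of MMP1 and of the beta-lyase STR3 (from 2.37 to 0.85, 3 arrays at 10 min). In the vitamin B6 and thiamine list SNZ1 rose and THI3, a regulator of thiamine genes, fell from 3.13 to 1.65 (-1.48 ± 0.24).

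The other lists held few changes. Of 10 histone genes and 4 Rim101 genes none passed in limma, and 0 of either did at an unadjusted p below 0.05. Of 32 proteasome genes 1 rose (1 to 2 over the other normalizations) and none fell, of 3 biotin genes VHT1 alone rose, of 3 zinc genes 1 rose and 1 fell, of 12 genes of RNA polymerases I and III 1 rose and 1 fell, and of 17 phospholipid and fatty acid genes OPI3 rose and 1 other fell (0 to 2 over the other normalizations). Among genes with the highest levels at 10 min, the plasma membrane protein gene PUN1 went from 4.09 to 2.38 (-1.71 ± 0.34) and AIM17, whose function is poorly known, from 3.76 to 1.72 (-2.04 ± 0.25). Among rises that turned into falls, the poorly known LEE1 went from 0.98 to -0.90 (-1.88 ± 0.37) and ECM19 from 0.94 to -0.62 (-1.57 ± 0.27).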
